A study of Mus musculus with 16 samples.

Results

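Transcripts of the epidermal growth factor (EGF) family were followed in differentiated mouse jejunal enteroids, which are epithelial cultures grown from intestinal crypts. The family was taken as the 10 genes with the symbols Areg, Ereg, Hbegf, Tgfa, Btc, Epgn and Egf (7 ligands) and Egfr, Erbb2 and Erbb3 (3 receptors), out of 54532 genes in the count table. All 10 were found once in the table and had counts in at least 15 of the 16 libraries.

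Cultures fell into 4 groups, and each had 4 cultures, which the study describes as taken from 4 mice. MYO5BΔIEC enteroids had the genotype Vil-CreERT2;Myo5b-flox/flox and MYO5B(G519R) enteroids the genotype Vil-CreERT2;Myo5b-flox/G519R, so that 1 allele of the latter kept the point mutation. In both, Cre, which is driven by the villin promoter of intestinal epithelium, was switched on by 24 h in 1 µM 4-OH-tamoxifen. A further group of MYO5BΔIEC cultures received 100 nM Compound-1, a synthetic agonist of the lysophosphatidic acid receptor LPAR5, for 2 days, while the untreated knockouts received vehicle. All cultures were moved from a growth medium to a differentiation medium made without added EGF and Wnt ligands. All mice were adult. The methods describe controls from the flox/flox mice with the same Cre, given solvent in place of 4-OH-tamoxifen, and the sample records name the drug for the MYO5BΔIEC and MYO5B(G519R) cultures only, while a legend calls the controls healthy littermates. It is thus not settled whether the controls carried Cre or received solvent, and 4-OH-tamoxifen and loss of MYO5B cannot be told apart in a comparison with control.

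Ligands of this family are made as membrane-bound precursors and are released from the cell surface by metalloproteases, chiefly ADAM17 and ADAM10. Released ligand binds EGFR, the receptors pair with one another, and the signal runs through RAS and the kinases MEK and ERK to target genes that include feedback inhibitors. ERBB2 binds no known ligand and serves as a partner, and ERBB3 binds neuregulins and has little kinase activity of its own. In the intestine, the pathway is known for sustaining crypt proliferation and repair after injury.

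Of the ligand genes, 4 lay next to one another on chromosome 5 (GRCm38). Epgn, Ereg, Areg and Btc were the only protein-coding genes among the 7 listed between positions 91027464 and 91402994, a span of 376 kb. Ereg lay 39.4 kb beyond Epgn, Areg lay 46.0 kb beyond Ereg, and Btc, on the opposite strand, lay 209 kb beyond Areg. The 250 bases before the start of Areg and of Btc are shown because these neighbors had the highest mean levels per length among the ligands in every group. They were taken from RefSeq promoter windows on GRCm38.p6, which held an entry for 7 of the 10 genes (Areg, Tgfa, Btc, Epgn, Egf, Egfr and Erbb2) and none for Ereg, Hbegf and Erbb3. Capitals mark a cyclic AMP response element (TGACGTCA) and a TATA element (TATAAA).
Areg, chr5:91139349-91139598, plus strand: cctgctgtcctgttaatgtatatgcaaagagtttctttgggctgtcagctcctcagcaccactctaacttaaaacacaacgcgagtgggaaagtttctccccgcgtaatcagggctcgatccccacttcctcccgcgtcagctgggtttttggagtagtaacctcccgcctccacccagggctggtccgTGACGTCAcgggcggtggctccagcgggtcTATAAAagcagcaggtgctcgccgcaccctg
Btc, chr5:91402995-91403244, minus strand: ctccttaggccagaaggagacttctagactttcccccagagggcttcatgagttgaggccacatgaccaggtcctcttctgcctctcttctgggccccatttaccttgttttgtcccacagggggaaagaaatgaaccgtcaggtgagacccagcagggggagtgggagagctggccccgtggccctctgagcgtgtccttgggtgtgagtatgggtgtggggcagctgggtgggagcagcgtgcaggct

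The letters TGACGTCA began 61 bases before the start of Areg and TATAAA began 31 bases before it. Both strands of the 7 windows were searched for these and for an AP-1 element (TGANTCA) and a TEAD element (CATTCC), and the only other matches were TATAAA 86 bases before the RefSeq start of Epgn and, on the opposite strand, CATTCC 88 bases before that of Erbb2. These RefSeq starts lie 53 and 14 bases inside the gene as the count table places it, whereas those of Areg and Btc are the same in both. The Btc, Tgfa, Egf and Egfr windows held none of the 4. Among 32851 RefSeq windows of 250 bases, 1.55% held TGACGTCA, 6.75% TGANTCA, 12.6% CATTCC and 12.4% TATAAA. A match describes letters in a window and is not a measured binding site.

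Libraries held 27804968 to 40101729 counts, and a count of 0 allowed a level of up to 0.0736 to 0.111 CPM (3 counts, counting error only). CPM are counts relative to the library total, scaled over all 16 libraries by the TMM method of edgeR. The targeted gene, Myo5b (ENSMUSG00000025885), was at 160, 230, 191 and 176 CPM in the control cultures, 135, 109, 169 and 101 CPM in MYO5BΔIEC, 139, 153, 173 and 136 CPM in MYO5B(G519R), and 149, 106, 87.2 and 101 CPM with Compound-1. Its log2 fold change was -0.55 (standard error 0.19, adjusted p = 0.0503 by edgeR) in MYO5BΔIEC and -0.33 (standard error 0.14, adjusted p = 0.109 by edgeR) in MYO5B(G519R), so neither passed the threshold, although the first did with DESeq2 (DESeq2 adjusted p = 0.0336) and both did without control culture 1 (adjusted p = 0.0155 and 0.0286 by edgeR). Counts over the whole gene do not show whether a transcript holds the deleted part. Control culture 1 stood apart. Its correlation with the other controls over genes was 0.967 to 0.971, against 0.993 to 0.994 at best for those 3 among themselves, its 8 enterocyte markers summed to 3170 CPM where the highest control reached 15900, and mitochondrially encoded genes took 6.41% of its counts where the highest control reached 10.4%. Results are therefore given with and without it. Fibroblast markers summed to 0.501 to 1.98 CPM in the 16 libraries, with Col3a1, Dcn and Lum at 0 in all of them, and endothelial markers to 0.149 to 1.35 CPM. Immune markers summed to 3.86 to 5.54 CPM in the control libraries and to 6.02 to 11.4, 5.64 to 6.93 and 5.39 to 9.69 CPM in those of MYO5BΔIEC, MYO5B(G519R) and Compound-1, with 1, 0 and 0 of the 3 tested called higher, and their part in the results was not tested. The 6 epithelial markers summed to at least 6350 CPM in each.

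Per length of transcript, Areg was the most abundant family member in every group. Control enteroids averaged 113 FPKM (fragments scaled to transcript length and library size), MYO5BΔIEC 210 FPKM, MYO5B(G519R) 142 FPKM and Compound-1 cultures 338 FPKM, and its lowest culture lay above the highest culture of Erbb3, the next gene, in all 4 groups. In control enteroids the order went on with Erbb3 (20.8 FPKM), Btc (17.1 FPKM) and Erbb2 (14.2 FPKM), whose neighbors overlapped in range. Hbegf (4.97 FPKM), Ereg (4.33 FPKM), Tgfa (3.06 FPKM) and Egfr (3.03 FPKM) formed a lower tier that also overlapped from one to the next. Egf and Epgn were under 1 FPKM in all 16 libraries.

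The summed level of the 7 ligands was 70.9 to 95.3 FPKM in 3 control cultures and 319 FPKM in control culture 1. It was 188 to 321 FPKM in MYO5BΔIEC, 157 to 213 FPKM in MYO5B(G519R) and 295 to 571 FPKM with Compound-1. The 3 receptors summed to 34.0 to 48.1 FPKM in control and to 57.5 to 111 FPKM over the other 12 cultures, without overlap. Areg alone made up 74.5% to 86.2% of ligand FPKM. Btc was the ligand whose share separated control from all other groups: in control it was 12.7% ± 1.63 (SD, n = 4), against 6.68% ± 0.718 for MYO5BΔIEC, 6.91% ± 0.546 for MYO5B(G519R) and 6.0% ± 0.942 for Compound-1. The Btc share of control culture 1 was 11%, with Areg high in that culture too. Shares of a sum move together, and no test was run on them.

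**Figure D1:**
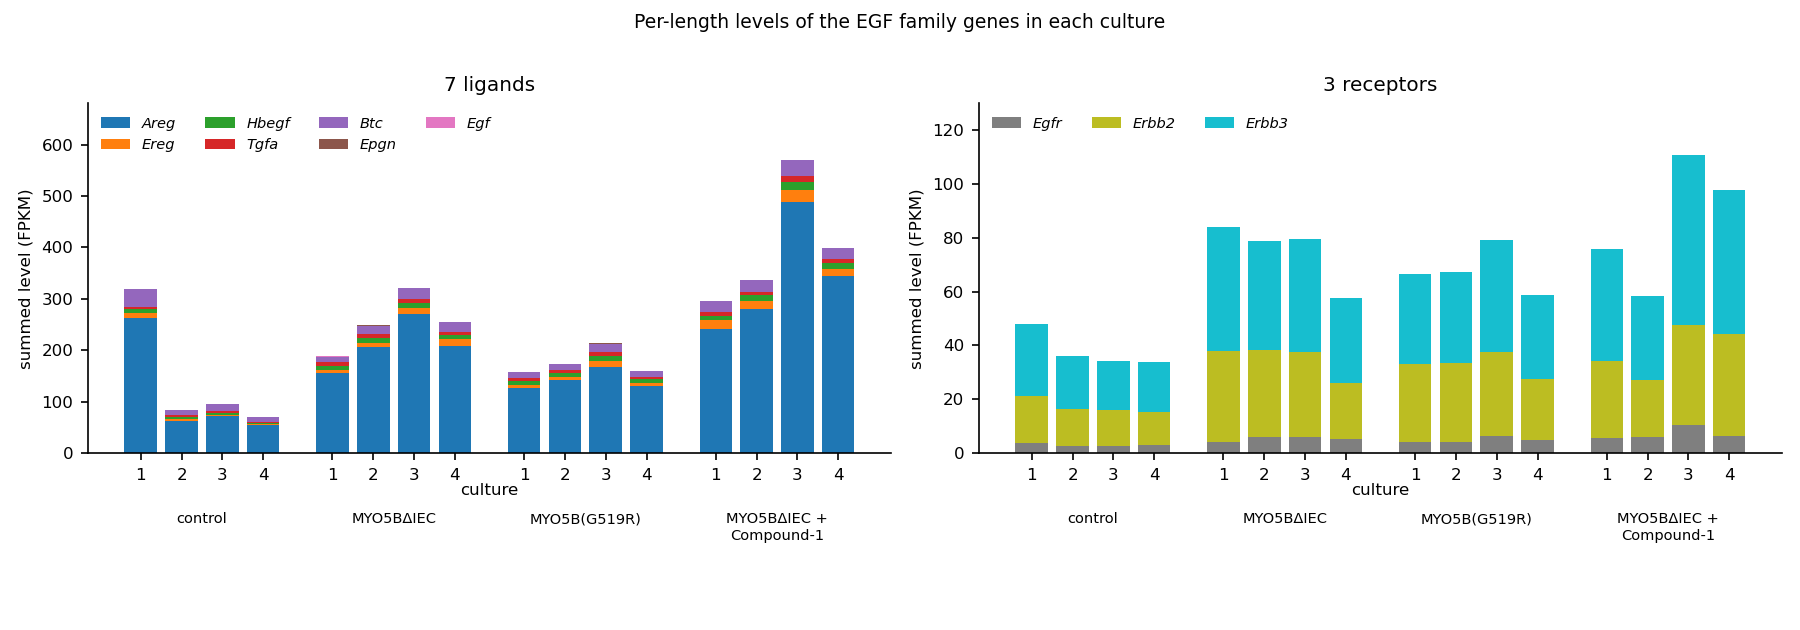
Stacked bars of FPKM (linear axis from 0) in each of 16 cultures, 4 a group, for the 7 ligands on the left and the 3 receptors on the right. Areg fills most of every ligand bar, control culture 1 reaches 319 FPKM where the other controls stay at or under 95.3 FPKM, and every receptor bar outside control is taller than the control bars.

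The receptors rose in both models of MYO5B loss. Erbb2 (ENSMUSG00000062312, chromosome 11, 98412470 to 98437716), the ligandless partner receptor, was at 91.0, 75.0, 70.4 and 67.3 CPM in the control cultures and at 177, 166, 167 and 110 CPM in MYO5BΔIEC. It was at 153, 154, 164 and 120 CPM in MYO5B(G519R). All 8 model cultures lay above all 4 controls. The log2 fold change of Erbb2 was 1.04 (standard error 0.18, adjusted p = 0.00295 by edgeR, n = 4 against 4) in MYO5BΔIEC and 0.96 (standard error 0.14, adjusted p = 0.00233 by edgeR) in MYO5B(G519R). Mien1, a protein-coding gene on the opposite strand, overlaps Erbb2 and had 9083 counts in all against 72388 for Erbb2. Whether the counting used strand is not given in the sources used here. In bulk RNA, fewer cells of a type and less RNA per cell cannot be told apart, here and in the results that follow.

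Erbb3 (ENSMUSG00000018166, chromosome 10, 128567523 to 128589652), the neuregulin receptor, was at 163, 121, 113 and 116 CPM in control, 281, 241, 254 and 193 CPM in MYO5BΔIEC, and 202, 203, 250 and 192 CPM in MYO5B(G519R). Again the highest control culture, culture 1, lay below the lowest culture of either model. Its log2 fold change was 0.93 (standard error 0.17, adjusted p = 0.00403 by edgeR) in MYO5BΔIEC and 0.72 (standard error 0.15, adjusted p = 0.00792 by edgeR) in MYO5B(G519R).

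Egfr (ENSMUSG00000020122, chromosome 11, 16752203 to 16918158), the receptor for all 7 ligands, was at 44.7, 28.6, 32.2 and 35.1 CPM in control. It was at 48.1, 64.6, 66.0 and 60.1 CPM in MYO5BΔIEC and at 45.1, 46.8, 71.5 and 54.3 CPM in MYO5B(G519R). The groups did not overlap, but the highest control and the lowest MYO5B(G519R) culture were nearly equal. Egfr rose with a log2 fold change of 0.77 (standard error 0.17, adjusted p = 0.00784 by edgeR) in MYO5BΔIEC and 0.63 (standard error 0.18, adjusted p = 0.0302 by edgeR) in MYO5B(G519R). The second call passed in 3 of the 8 fits that each left out 1 culture. It was lost without control culture 2, 3 or 4 (adjusted p = 0.0838, 0.0856 and 0.0724 by edgeR) and without MYO5B(G519R) culture 3 or 4 (adjusted p = 0.0774 and 0.0567 by edgeR). Once the dependence on gene length was taken out, it was 0.44 (adjusted p = 0.0334 by edgeR) in MYO5BΔIEC and 0.37 (adjusted p = 0.0803 by edgeR) in MYO5B(G519R).

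**Figure D2:**
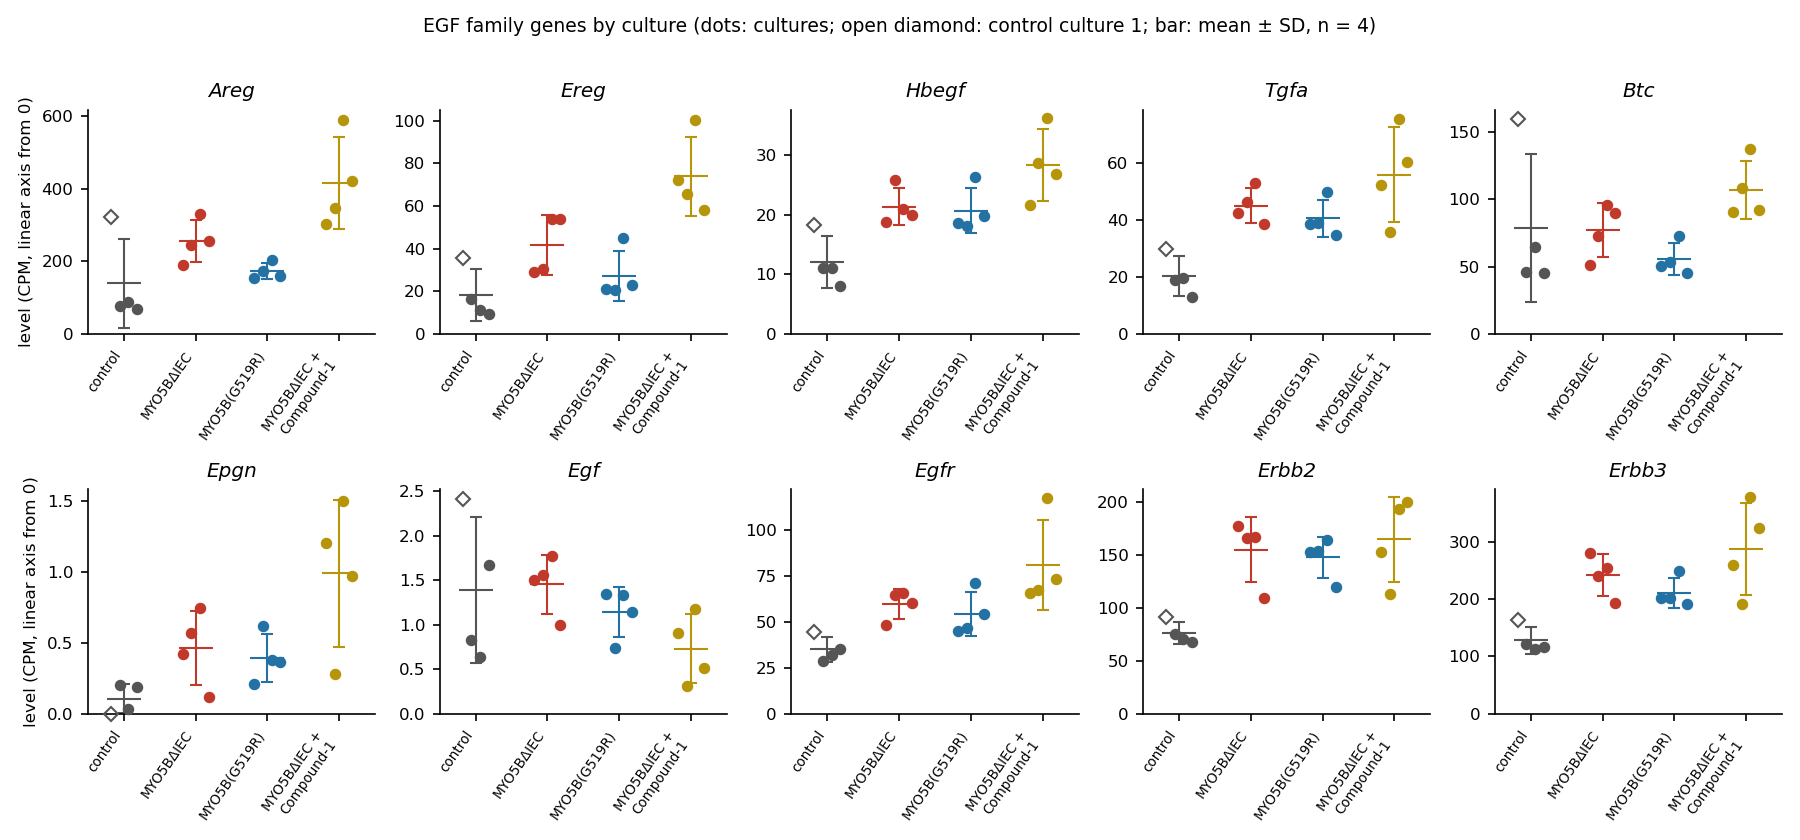
Level of each gene in CPM (linear axes from 0) in every culture of the 4 groups, with the group mean and SD as bars (n = 4) and control culture 1 as an open diamond. Receptors and Tgfa separate control from the other groups, while the Areg and Btc values of control culture 1 (323 and 160 CPM) lie far above those of the other 3 controls.

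Among the ligands, Tgfa (ENSMUSG00000029999, chromosome 6, 86195223 to 86275719), which encodes transforming growth factor α, had the lowest adjusted p in both models. It was at 29.8, 18.8, 19.7 and 12.9 CPM in control, 42.3, 46.1, 52.9 and 38.4 CPM in MYO5BΔIEC, and 38.6, 38.9, 49.7 and 34.8 CPM in MYO5B(G519R). All 8 model cultures lay above all 4 controls. The log2 fold change was 1.15 (standard error 0.23, adjusted p = 0.00542 by edgeR) in MYO5BΔIEC and 0.99 (standard error 0.23, adjusted p = 0.0124 by edgeR) in MYO5B(G519R). Tgfa, Erbb2 and Erbb3 passed in each of the 8 fits that left out 1 culture, in both models.

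Hbegf (ENSMUSG00000024486, chromosome 18, 36504929 to 36515805) encodes heparin-binding EGF-like growth factor, a ligand of EGFR and ERBB4. Its level was 18.2, 11.1, 11.1 and 8.0 CPM in control, 18.8, 25.8, 20.9 and 20.0 CPM in MYO5BΔIEC, and 18.6, 18.2, 26.3 and 19.7 CPM in MYO5B(G519R). Control culture 1 lay just below the lowest MYO5BΔIEC culture and overlapped the lowest MYO5B(G519R) culture. The log2 fold change was 0.83 (standard error 0.24, adjusted p = 0.0254 by edgeR) in MYO5BΔIEC and 0.77 (standard error 0.24, adjusted p = 0.0395 by edgeR) in MYO5B(G519R). In MYO5BΔIEC the call was lost without control culture 2, 3 or 4 or MYO5BΔIEC culture 2 or 3 (adjusted p up to 0.0804 by edgeR), and in MYO5B(G519R) it held only without control culture 1 (adjusted p up to 0.111 by edgeR otherwise). Neither passed with the dependence on gene length taken out (adjusted p = 0.0502 and 0.0639 by edgeR).

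Ereg (ENSMUSG00000029377, chromosome 5, 91074622 to 91093646), encoding epiregulin, was at 35.7, 16.6, 11.4 and 9.41 CPM in control and at 29.1, 30.3, 53.9 and 54.1 CPM in MYO5BΔIEC. It was at 21.0, 20.5, 44.8 and 22.7 CPM in MYO5B(G519R). Control culture 1 overlapped both models, and a single MYO5B(G519R) culture was higher than the other 3. Its log2 fold change was 1.20 (standard error 0.40, adjusted p = 0.0444 by edgeR) in MYO5BΔIEC and 0.58 (standard error 0.42, adjusted p = 0.338 by edgeR) in MYO5B(G519R). When any 1 culture was left out, the first call held only without control culture 1, at 1.75 (adjusted p = 0.000589 by edgeR), and the adjusted p was otherwise 0.0536 to 0.116. It was also lost with the dependence on gene length taken out, at 1.08 (adjusted p = 0.0627 by edgeR). Without control culture 1, Ereg rose in MYO5B(G519R) as well, at 1.16 (adjusted p = 0.00935 by edgeR).

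Areg (ENSMUSG00000029378, chromosome 5, 91139599 to 91148432), encoding amphiregulin, was at 323, 77.6, 89.1 and 67.6 CPM in control. It was at 190, 247, 331 and 257 CPM in MYO5BΔIEC and at 155, 173, 204 and 160 CPM in MYO5B(G519R). The 8 model cultures lay above 3 controls, and 7 of them lay below control culture 1. With all cultures, the log2 fold change was 0.89 (standard error 0.45, adjusted p = 0.17 by edgeR) in MYO5BΔIEC and 0.31 (standard error 0.45, adjusted p = 0.651 by edgeR) in MYO5B(G519R). Without control culture 1 it was 1.72 (adjusted p = 7.08e-05 by edgeR) and 1.18 (adjusted p = 9.04e-05 by edgeR), so this single culture decided the call.

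Btc (ENSMUSG00000082361, chromosome 5, 91357261 to 91402994), encoding betacellulin, was at 160, 45.8, 64.3 and 45.5 CPM in control, 51.0, 72.5, 95.6 and 90.0 CPM in MYO5BΔIEC, and 50.7, 53.3, 72.7 and 45.4 CPM in MYO5B(G519R). Apart from control culture 1 too, the range of control overlapped those of both models. The log2 fold change was -0.02 (95% confidence interval -0.86 to 0.82, adjusted p = 0.974 by edgeR) in MYO5BΔIEC and -0.51 (-1.35 to 0.34, adjusted p = 0.356 by edgeR) in MYO5B(G519R). Without control culture 1 both turned positive, at 0.58 (adjusted p = 0.0458 by edgeR) and 0.13 (adjusted p = 0.585 by edgeR).

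The last 2 ligands were scarce. Epgn (ENSMUSG00000035020, chromosome 5, 91027464 to 91035215), encoding epigen, had 0, 6, 1 and 5 counts in control, 14, 19, 21 and 4 counts in MYO5BΔIEC and 7, 21, 14 and 12 counts in MYO5B(G519R), and it passed the minimum of 10 counts in at least 2 libraries through the model cultures alone. Its log2 fold change was 2.14 (standard error 0.88, adjusted p = 0.0946 by edgeR) and 1.91 (standard error 0.80, adjusted p = 0.104 by edgeR). Egf (ENSMUSG00000028017, chromosome 3, 129677565 to 129755316), the founding ligand, had 20 to 77 counts per control library, 33 to 52 per MYO5BΔIEC library and 25 to 49 per MYO5B(G519R) library. Its log2 fold change was 0.07 (95% confidence interval -0.87 to 1.02, adjusted p = 0.919 by edgeR) and -0.28 (-1.25 to 0.68, adjusted p = 0.673 by edgeR), so changes within these bounds remain possible.

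Over the whole family, 6 of 10 genes rose in MYO5BΔIEC (Ereg, Hbegf, Tgfa, Egfr, Erbb2 and Erbb3) and 5 of 10 in MYO5B(G519R) (the same genes without Ereg), and none fell. Of all 17951 genes tested in MYO5BΔIEC, 13.5% rose and 13.8% fell, and of 17829 in MYO5B(G519R), 13.1% rose and 13.7% fell. In each model 5 family members lay in every model culture above every control culture, where 13.3% and 13.6% of all genes did. In MYO5B(G519R) the 5 included Epgn, which reached the count minimum through the model cultures alone, and without Epgn the number was 4 of 9. The median log2 fold change of the 10 members was 0.91 and 0.68, against -0.01 and -0.05 for all genes. Without control culture 1, 8 and 7 members rose, where 21.2% and 24.0% of all genes did. This culture was the highest control for every member but Epgn, so leaving it out raised their fold changes. These larger numbers follow in part from which culture was left out. Both comparisons used the same 4 control cultures.

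**Figure D3:**
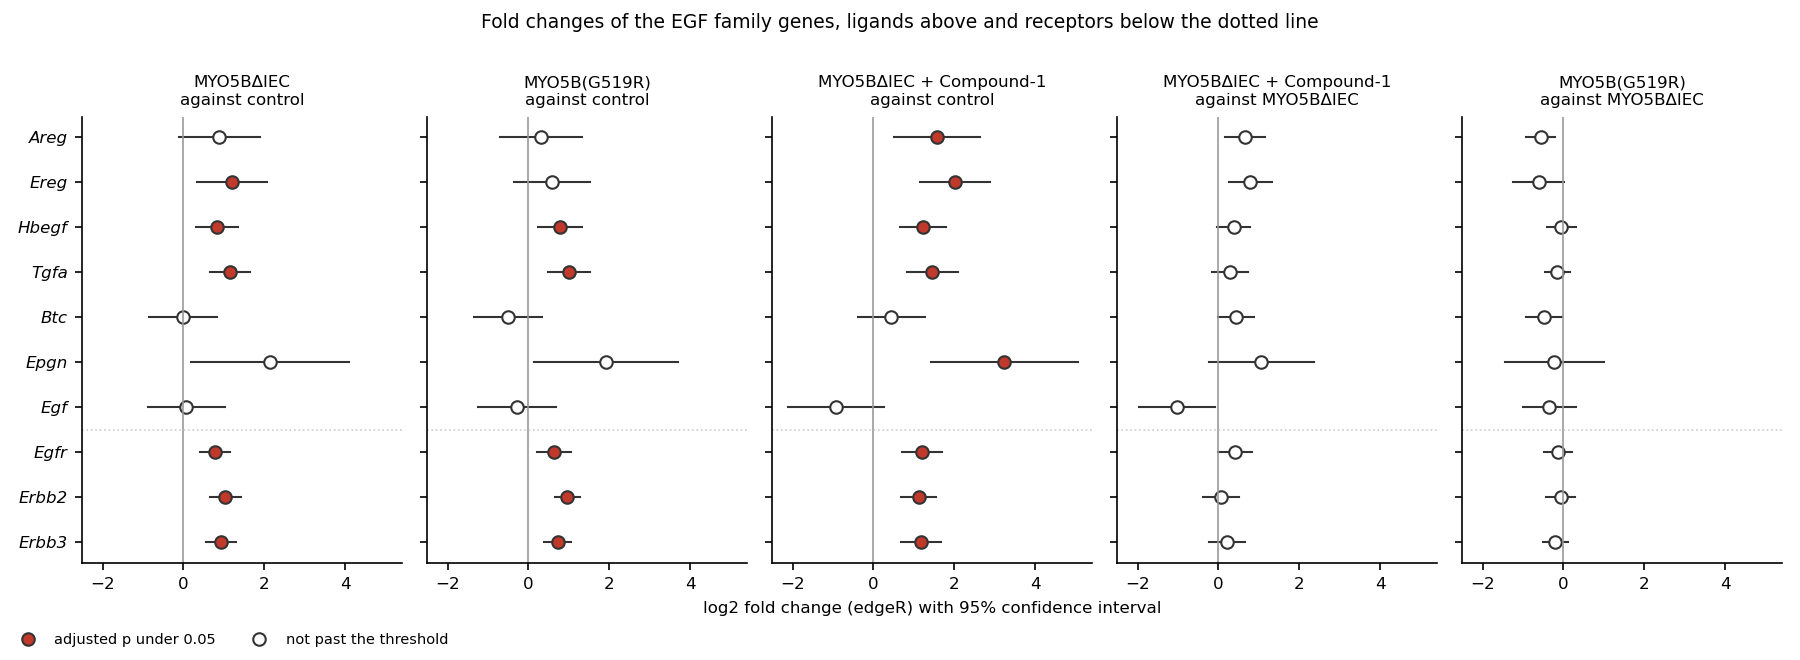
Log2 fold change (edgeR) of each family member with its 95% confidence interval in 5 comparisons, filled where the adjusted p was under 0.05. In the 3 panels against control the receptors, Tgfa and Hbegf are filled and to the right of 0, and in the 2 panels on the right no point is filled.

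The models did not differ detectably from each other. Set directly against MYO5BΔIEC, all 10 members had log2 fold changes of -0.61 to -0.05 in MYO5B(G519R), and none passed (edgeR, lowest adjusted p = 0.838). Of the 17943 genes tested, 0.00557% passed. The intervals of the receptors were -0.49 to 0.22 for Egfr, -0.42 to 0.28 for Erbb2 and -0.50 to 0.11 for Erbb3. The log2 difference of Areg was -0.56 (95% confidence interval -0.92 to -0.21, unadjusted p = 0.0051 and adjusted p = 0.838 by edgeR), which failed the correction, and the groups overlapped.

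Treated against vehicle cultures show which transcripts of knockout enteroids differ with the LPAR5 agonist. With Compound-1, Areg was at 302, 348, 590 and 423 CPM and Ereg at 72.0, 65.4, 100 and 57.9 CPM. All 4 treated cultures lay above all 4 vehicle cultures for Ereg, and for Areg 1 treated culture lay within the vehicle range. The log2 difference from vehicle was 0.79 for Ereg (95% confidence interval 0.26 to 1.32, unadjusted p = 0.00727, adjusted p = 0.546 by edgeR) and 0.67 for Areg (0.17 to 1.16, unadjusted p = 0.0129, adjusted p = 0.56 by edgeR). Egf had 10 to 48 counts in treated cultures and a log2 difference of -1.02 (-1.95 to -0.09, unadjusted p = 0.0339, adjusted p = 0.624 by edgeR). None of the 10 members passed, and of 18037 genes tested, 0% did with edgeR. Of these, 1355 had an unadjusted p under 0.05, and DESeq2 called 91 genes (48 higher and 43 lower), with no family member among them. Ereg was the only member without overlap upward, which 1.23% of all genes showed.

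For the other members the interval bounds the difference. It was -0.03 to 0.77 for Hbegf, -0.17 to 0.73 for Tgfa, -0.01 to 0.89 for Btc, -0.23 to 2.36 for Epgn, -0.02 to 0.84 for Egfr, -0.39 to 0.50 for Erbb2 and -0.23 to 0.67 for Erbb3. A rise of Erbb2 or Erbb3 in the treated cultures by more than these upper bounds was thus outside the intervals, while smaller changes remain possible.

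Against control, the treated knockout enteroids had 8 members called higher, all but Btc and Egf, where 15.7% of 17937 genes rose. Epgn reached the count minimum through the treated cultures alone, so its call is given as a value only, and without it 7 of 9 members were higher. Tgfa was at 52.1, 35.7, 75.4 and 60.2 CPM, Erbb2 at 153, 113, 193 and 200 CPM and Erbb3 at 260, 192, 379 and 324 CPM. Every one of these lay above the controls. The log2 fold changes were 2.02 for Ereg (standard error 0.39, adjusted p = 0.00614 by edgeR), 1.58 for Areg (standard error 0.48, adjusted p = 0.0328 by edgeR), 1.46 for Tgfa (standard error 0.28, adjusted p = 0.00622 by edgeR) and 1.23 for Hbegf (standard error 0.26, adjusted p = 0.00819 by edgeR). The receptors rose by 1.21 (Egfr), 1.12 (Erbb2) and 1.17 (Erbb3) on the log2 scale, with edgeR adjusted p values of 0.00553, 0.00497 and 0.00602. Epgn had 36, 9, 61 and 34 counts with Compound-1 against 0 to 6 in control, and a log2 fold change of 3.24 (standard error 0.82, adjusted p = 0.0161 by edgeR). The Areg call was lost without control culture 2, 3 or 4 or Compound-1 culture 3 or 4 (adjusted p up to 0.0927 by edgeR), the Epgn call without control culture 3 (adjusted p = 0.0514 by edgeR), and the Areg call with the length trend removed (adjusted p = 0.0564 by edgeR). Of the members, 7 showed no overlap upward (6 of 9 without Epgn), against 14.3% of all genes, and the median member changed by 1.22 against -0.05 for all genes. This comparison shares its controls with those above, and a member that differed between control and vehicle-treated knockouts enters it with that difference.

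**Figure D4:**
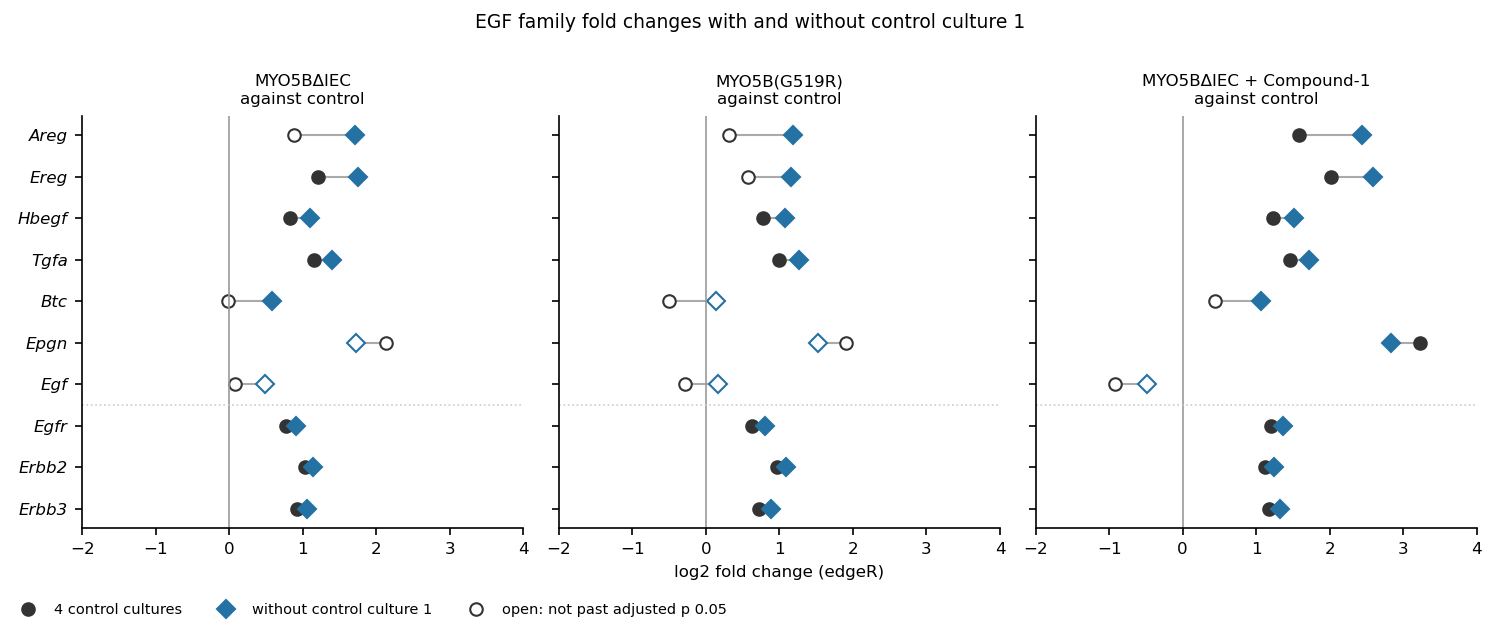
Log2 fold change (edgeR) of each member against 4 control cultures (circles) and without control culture 1 (diamonds), filled where the adjusted p was under 0.05. Areg moves from 0.89 to 1.72 in MYO5BΔIEC and from 0.31 to 1.18 in MYO5B(G519R), Btc crosses 0 in both, and the 3 receptors move little.

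Other genes of the pathway were read from lists written by role. Of 8 ligand release genes tested (of 9 listed), 4 rose in each model and 6 with Compound-1 against control, and none fell. Over all genes, 13.5%, 13.1% and 15.7% rose in these comparisons, and the counts of the lists that follow stand against the same shares. Furin, a proprotein convertase, averaged 39.5 ± 10.8 CPM (SD) over 4 controls, 86.3 ± 11.2 CPM over MYO5BΔIEC and 86.8 ± 11 CPM over MYO5B(G519R) cultures, a log2 fold change of 1.14 in both (adjusted p = 0.00275 and 0.00327 by edgeR). Rhbdf2, which encodes iRhom2, the escort protein of ADAM17, changed by 1.07 and 0.87 (adjusted p = 0.00346 and 0.00974 by edgeR). The proteases best known for shedding these ligands did not pass in the models, with log2 fold changes of -0.07 and -0.10 for Adam17 and 0.21 and 0.25 for Adam10 (adjusted p = 0.728 and 0.483, 0.31 and 0.145 by edgeR). Of the other ADAM genes listed, Adam15 rose by 0.98 and 0.96 (adjusted p = 0.00242 and 0.00225 by edgeR), and by 0.88 with Compound-1 (adjusted p = 0.00575 by edgeR). Adam9 passed only with Compound-1 against control, at 0.66 (adjusted p = 0.0366 by edgeR), and Adam12 had no counts.

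Among 12 receptor inhibitors and degradation genes, 6 rose in each model and 7 with Compound-1. Ptprj, a receptor phosphatase, changed by 1.04 in MYO5BΔIEC and 0.84 in MYO5B(G519R) (adjusted p = 0.00344 and 0.0125 by edgeR), and Cbl, a ubiquitin ligase of activated receptors, by 0.80 and 0.77 (adjusted p = 0.0216 and 0.0248 by edgeR). Of 17 adaptors and kinases of the RAS-ERK cascade, 2 rose in each model and 4 with Compound-1, which was a share close to that of all genes in the models. Map2k2, which encodes MEK2, changed by 0.46 in both (adjusted p = 0.0283 and 0.0105 by edgeR), and Gab1, a docking protein, by 0.77 in MYO5BΔIEC (adjusted p = 0.0371 by edgeR) and 0.64 in MYO5B(G519R) (adjusted p = 0.0676 by edgeR).

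ERK feedback and target genes were the last list. Of 19 tested, 12 rose in MYO5BΔIEC, 11 in MYO5B(G519R) and 11 with Compound-1 against control, with medians of 0.72, 0.70 and 0.85. Fosl1, an AP-1 subunit, averaged 1.23 ± 0.496 CPM (SD) over 4 controls, 4.82 ± 1.70 CPM over MYO5BΔIEC, 3.66 ± 1.20 CPM over MYO5B(G519R) and 9.46 ± 5.25 CPM over Compound-1 cultures, and its log2 fold change was 1.97, 1.57 and 2.94 (adjusted p = 0.00401, 0.0102 and 0.00398 by edgeR). Epha2, an ephrin receptor gene, changed by 1.62, 1.37 and 2.15 (adjusted p = 0.00891, 0.026 and 0.00635 by edgeR). The same direction was called for Dusp4, Dusp5, Dusp6, Egr1, Epha4, Phlda1, Ccnd1 and Spred2 in all 3 comparisons. Etv4 passed in both models only, and Spred3 in MYO5BΔIEC and with Compound-1 only. Spry1, Spry2, Spry4, Spred1, Etv5, Ier3 and Myc passed in none. No gene of these lists passed between Compound-1 and vehicle or between the models.

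Neuregulins, the ligands of ERBB3 and ERBB4, had few counts, apart from Nrg4. Erbb4 and Nrg3 had no count in any library, Nrg2 had at most 4 counts and Nrg1 at most 15. Nrg4, a ligand of ERBB4, was the only one tested against control and fell in all 3 comparisons. It averaged 8.56 ± 2.51 CPM (SD) over 4 controls, 4.32 ± 1.04 CPM over MYO5BΔIEC, 3.60 ± 0.261 CPM over MYO5B(G519R) and 3.16 ± 1.11 CPM over Compound-1 cultures, and its log2 fold change was -0.98, -1.25 and -1.44 (adjusted p = 0.0177, 0.00457 and 0.0087 by edgeR). In MYO5BΔIEC the call was lost without control culture 2 and without MYO5BΔIEC culture 1 or 2.

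These list counts depended on single cultures, as did the number of genes called over all genes. Without control culture 1, the ERK feedback and target genes called higher numbered 18 in MYO5BΔIEC, 19 in MYO5B(G519R) and 18 with Compound-1, and the RAS-ERK cascade genes 10, 11 and 10, while the share of all genes called higher was 21.2%, 24.0% and 22.9%. Without any 1 of control cultures 2, 3 and 4, the ERK list had 4 to 6 calls in MYO5B(G519R), and without MYO5B(G519R) culture 3 it had 7. In MYO5BΔIEC it had 8 without each of the same controls and 7 without MYO5BΔIEC culture 2. The number of all genes called higher fell as well. Without control culture 2, 3 or 4 it was 1610, 1449 and 1508 in MYO5B(G519R), against 2341 with all cultures. In MYO5BΔIEC it was 1734, 1518 and 1506, against 2427. Without MYO5B(G519R) culture 3 it was 1617, and without MYO5BΔIEC culture 2 it was 1558. The RAS-ERK list ranged from 0 to 11 and the inhibitor list from 2 to 10 over the fits that left out 1 culture. Without control culture 2, 3 or 4, the inhibitor list had 2 or 3 calls in the models. With the dependence on gene length taken out, the inhibitor list had 3, 4 and 3 genes called higher and 1 lower in each comparison, and the ERK list had 8, 8 and 11 called higher. The gene called lower was Socs4, a suppressor of cytokine signaling gene named after its values were seen, with log2 fold changes of -0.42, -0.38 and -0.38 (adjusted p = 0.0192, 0.0154 and 0.0308 by edgeR) in this fit. In none of the fits that left out 1 culture was a gene of the 4 lists called lower.

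**Figure D5:**
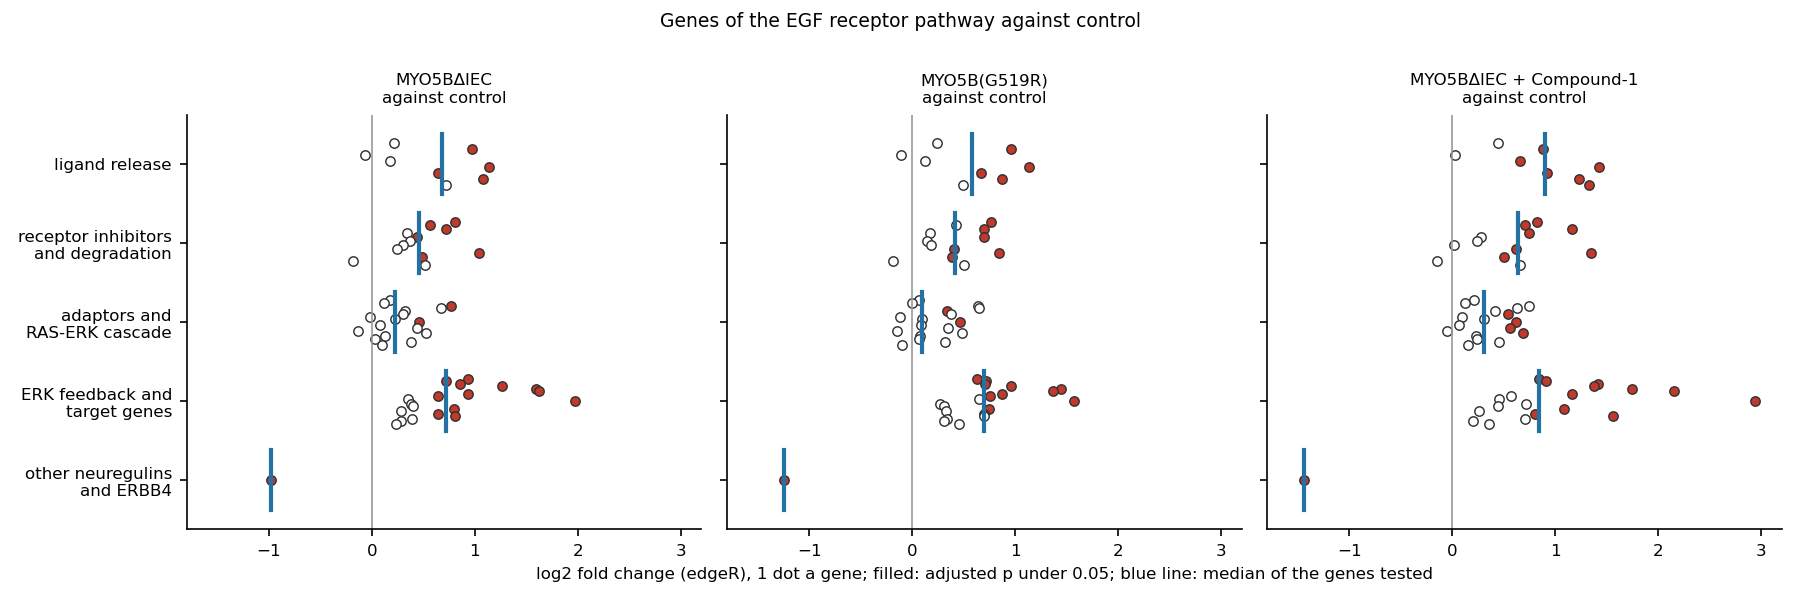
Log2 fold change (edgeR) of each tested gene of 5 pathway lists against control in 3 comparisons, filled where the adjusted p was under 0.05, with the list median as a blue line. The ERK feedback and target genes have medians of 0.72, 0.70 and 0.85, and Nrg4 is the single point on the left.

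Markers of cell programs also differed between the groups. Calls below are for MYO5BΔIEC, MYO5B(G519R) and Compound-1 against control. Over all genes, 13.5%, 13.1% and 15.7% rose and 13.8%, 13.7% and 13.7% fell in these comparisons. The 6 epithelial markers summed to 6350 to 7820 CPM among controls, 9350 to 10300 CPM among MYO5BΔIEC, 8360 to 10700 CPM among MYO5B(G519R) and 10100 to 16200 CPM among Compound-1 cultures. Of them 4, 3 and 5 rose, and the median log2 fold change of the list was 0.68, 0.56 and 1.09. The 6 genes of fetal and regenerative epithelium summed to 64.4 to 158 CPM, 239 to 358, 149 to 452 and 329 to 2020 CPM in the same order, and 4, 3 and 4 of the 5 tested rose. Their highest control value, 158 CPM, was that of control culture 1. The 5 stem cell markers summed to 2250 to 6290 CPM in control and to 511 to 2500 CPM in the other groups, but 1 of 5 fell in each comparison and the median log2 fold change of the list was 0.02, 0.30 and -0.30. The 4 proliferation markers summed to 1280 to 1660 CPM in control, 933 to 1120 CPM for MYO5BΔIEC, 1090 to 1370 CPM for MYO5B(G519R) and 586 to 1200 CPM for Compound-1, and 3, 2 and 2 of them fell. Of 5 tuft cell markers tested, 1, 2 and 4 fell, and of 8 enterocyte markers 0, 1 and 3 fell and 1, 0 and 1 rose. Of 6 goblet cell markers, 2 rose in each and 2, 3 and 2 fell, and of 6 enteroendocrine markers 2, 1 and 1 rose and 0, 1 and 0 fell. Paneth cells, a known source of EGF ligands in crypts, had 6 markers that summed to 3240 to 7740 CPM in control and to 3090 to 4650 CPM elsewhere, and 2, 2 and 1 of them fell. Control culture 1 also had the highest control sum of the epithelial (7820 CPM), goblet cell (2170 CPM) and tuft cell markers (66.7 CPM). The tuft cell sums were 20.6 to 66.7 CPM in control and 14.6 to 29.1 CPM in the other groups. The sums of control culture 1 were the lowest among controls for the stem cell (2250 CPM), proliferation (1280 CPM) and Paneth cell (3240 CPM) markers. The part of these programs in the family's changes was not tested.

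Likeness of pattern was read within groups. The gene whose deviations from the group means followed a member most closely over the 16 libraries, among 13536 candidates, was Ppfibp1 for Areg (Pearson r = 0.97), Plxnb2 for Tgfa (r = 0.97), Trpm4 for Erbb2 (r = 0.963), Crebbp for Erbb3 (r = 0.98), Anxa3 for Btc (r = 0.967), Epha2 for Hbegf (r = 0.951), Sema3c for Egfr (r = 0.945) and Senp5 for Ereg (r = 0.942). For the scarce ligands it was Paqr5 for Epgn (r = 0.923) and 9130017K11Rik for Egf (r = 0.898). Among the members, Areg and Btc deviated together (r = 0.94), as did Erbb2 and Erbb3 (r = 0.914), while Areg and Erbb2 did so less (r = 0.437). The points are libraries that share depth and culture, control culture 1 among them, and the values are descriptions without a test.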

How the data were processed

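RNA-sequencing of 16 enteroid cultures was used as deposited. Per the study's methods, reads were paired-end and were mapped by the authors on GRCm38/mm10 using STAR (v2.5). HTSeq (v0.6.1) gave counts per gene, and the authors deposited these counts and FPKM made from them by gene length and library size. TopHat and DESeq2 are also named in the methods. The strand setting and the treatment of reads with several matches are not given in the sources used here.

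Tests used edgeR 4.0.16 (R 4.3.3): TMM scaling, a minimum of 10 counts in 2 or more libraries of the 8 compared, the quasi-likelihood F test between 2 groups, and Benjamini-Hochberg adjustment over all genes, with a threshold of 0.05. SE are the log2 fold change over the root of F, and intervals are 95%. Levels are CPM on the TMM scale of 16 libraries. With 4 cultures a group, p-values measure the spread between these cultures. The code was tested on simulated data. Alternatives were DESeq2 1.42.0, its size factors in edgeR, no filter, filterByExpr, a joint fit of the 4 groups, a block on replicate number, limma 3.58.1 on log2(FPKM + 1) and log2(FPKM + 0.1), mitochondrial genes left out, the trend on gene length removed, and each culture left out.

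The members and the lists were chosen with earlier results of these data known. All members are reported. Other pathway genes are counted by list, and the 2 called genes with the largest change in either model are named, with all genes of the neuregulin list. The ADAM genes, Socs4, and the ERK feedback and target genes other than Fosl1 and Epha2 were named from the same lists after their values were seen. The same holds for the Btc share. Promoter windows came from RefSeq tables.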

Additional observations from a re-analysis of the deposited data

Results flagged for a closer look

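Each member's level was examined in each group for a culture whose gap to its nearest neighbor took up most of the group's range (Dixon's test at its 95% critical value for 4 samples). Of 40 gene and group pairs, 6 were past it, where chance gives about 1 in 20.

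Of the pairs past it, 3 were control culture 1. Areg was at 323 CPM there and at 67.6 to 89.1 CPM in the other controls, Btc at 160 CPM against 45.5 to 64.3 CPM, and Erbb3 at 163 CPM against 113 to 121 CPM. Ereg was at 44.8 CPM in MYO5B(G519R) culture 3 and at 20.5 to 22.7 CPM in the other cultures of that group. Egfr was at 118 CPM in Compound-1 culture 3 and at 65.8 to 73.2 CPM in the others. Erbb2 was at 110 CPM in MYO5BΔIEC culture 4, the lowest of its group, where the others lay at 166 to 177 CPM.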

How the results depend on the processing

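The members called higher numbered 6 of 10 in MYO5BΔIEC, 5 in MYO5B(G519R), 8 with Compound-1 against control and 0 in the other 2 comparisons. The 8 included Epgn, which reached the count minimum through the treated cultures alone, and without it 7 of 9 were called. The count in MYO5B(G519R) fell to 3 with the length trend removed, and ranged from 3 (without control culture 2, 3 or 4, or MYO5B(G519R) culture 3 or 4) to 7 (without control culture 1) when 1 culture was left out. In these left-out fits, all genes called higher ranged from 1449 (without control culture 3) to 4244 (without control culture 1), against 2341 with all cultures. In MYO5BΔIEC the members called ranged from 4 (without control culture 2, 3 or 4, or MYO5BΔIEC culture 2 or 3) to 8 (without control culture 1). All genes called higher there ranged from 1506 to 3767, against 2427. With Compound-1 against control the members called ranged from 6 (without control culture 3) to 9 (without control culture 1). All genes called higher there ranged from 1710 to 4056, against 2820. Of the single members' values, 832 kept direction and side of the threshold, 38 fell short of it, 7 newly passed it and 20 reversed. All 20 belonged to members not called in that comparison. In MYO5BΔIEC against control these were Btc (0.19 with the replicate block, 0.16 and 0.17 with limma on log2(FPKM + 1) and log2(FPKM + 0.1), 0.58 without control culture 1, 0.13 and 0.0049 without MYO5BΔIEC culture 1 and 2) and Egf (-0.23 with the length trend removed, -0.11 and -0.16 without control culture 2 and 3, -0.04 without MYO5BΔIEC culture 3), whose values with 1 culture left out spanned -0.21 to 0.58 and -0.16 to 0.49. In MYO5B(G519R) against control, without control culture 1, Btc was 0.13 and Egf 0.17, the upper ends of -0.70 to 0.13 and -0.52 to 0.17. Between Compound-1 and vehicle, Erbb2 was -0.03 and -0.05 without Compound-1 culture 3 and 4, and -0.083 without vehicle culture 4, with a range of -0.083 to 0.20. Between the models, Hbegf was 0.0073 and 0.066, Epgn 0.093, and Erbb2 0.021 and 0.0055 with 1 culture left out, with ranges of -0.18 to 0.066, -0.54 to 0.093 and -0.20 to 0.021. The cause was not tested.

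With the length trend removed, the split of all genes called was 1794 higher and 3109 lower in MYO5BΔIEC (2427 and 2483 without this step), 1918 and 2849 in MYO5B(G519R) (2341 and 2437), and 2442 and 3001 with Compound-1 (2820 and 2455), while 4, 3 and 7 members were called, all higher. Epgn, with its limit given above, was among the 7. Without control culture 1, all genes called in MYO5BΔIEC were 3767 higher and 3707 lower, and in MYO5B(G519R) 4244 and 3902.

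Deviations of same-numbered cultures correlated at -0.193 to 0.524, and in no comparison did all 4 exceed 0.1. By this measure the replicate numbers did not mark pairs throughout a comparison. Whether same-numbered cultures came from the same mouse is not given, and these correlations cannot decide it. Between the models, however, MYO5B(G519R) cultures 1, 3 and 4 each matched the same-numbered MYO5BΔIEC culture best (r = 0.118, 0.414 and 0.524). A block on the number raised the genes with an unadjusted p under 0.05 (edgeR) there from 772 to 2532. With the replicate number as a block, 5 members were called in MYO5BΔIEC (without Ereg), 4 in MYO5B(G519R) (without Egfr), 7 with Compound-1 against control (without Epgn) and 0 in the other comparisons. All genes called higher against control were then 1949, 1969 and 2377 in the same order, where 2427, 2341 and 2820 were without the block. Epgn had at most 61 counts in a library.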
